A study of Mus musculus with 18 samples.

Results

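MIN6 cells, a mouse beta cell line, were exposed to an inflammatory cytokine mix together with either of 2 drugs that act on polyamine metabolism, and the RNA of the cells was sequenced. The comparison concerns 6 of the 18 libraries of the study, chosen by their treatment label: 3 DENSpm + Cytokines libraries and 3 DFMO + Cytokines libraries. DENSpm was given at 10 µM and DFMO at 5 mM, so the doses were not matched, and every culture was treated for 24 h. The cytokines in both groups were interleukin 1 beta, TNF-α and IFN-γ. The other 12 libraries, in groups of 3 labelled DENSpm Alone, DFMO Alone, Vehicle + Cytokines and Vehicle, added to the estimate of the spread and served for values given side by side. The replicates are labelled as biological, with no word on separate passages or days, so a p-value here reflects the variation among libraries, which may be partly technical. MIN6 is a single line, derived from insulinomas of mice that carry a viral T antigen in their beta cells, and it divides in culture.

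Polyamines (putrescine, spermidine and spermine) are small cationic metabolites that bind nucleic acids, and dividing cells need them. Ornithine decarboxylase (Odc1) makes putrescine from ornithine, and DFMO (difluoromethylornithine) blocks that enzyme irreversibly. DENSpm (diethylnorspermine) is a polyamine analogue, known for inducing the acetyltransferase Sat1, which starts polyamine breakdown and export. In beta cells the 3 cytokines are known for inducing interferon-response, chemokine and antigen presentation genes and for stress of the endoplasmic reticulum.

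Library totals were 403377 to 639625 counts over 24557 rows, and 3713 rows, which held 97.1% of the counts, passed the filter on low counts and were tested. A row carries a gene symbol, but rows whose exons overlap exons of another gene on the opposite strand held 83.3% of all counts, while the 76 rows of ribosomal protein genes held 0.0975 to 0.159% of the counts in the DENSpm + Cytokines libraries and 0.0902 to 0.114% in the DFMO + Cytokines libraries. Each row is therefore named together with the gene whose exons lie opposite, and a change of a row is not a statement on the gene it is named for. The strand setting of the counting is not given in the sources used here, so reads of a gene and of its opposite partner cannot be told apart. On the second principal component of all rows tested (13.2% of the variance) the DENSpm + Cytokines libraries lay at 14.31, 13.64 and 10.22, against -24.74, -20.11 and -18.16 for the DFMO + Cytokines libraries. DENSpm + Cytokines 3 stood somewhat apart from its group on the third component (6.44%), at -26.61 with -15.27 and -9.979 for the other 2. The labels do not say whether the cells given DENSpm and those given DFMO were cultured or sequenced together, so a batch and the drug cannot be told apart. Of the islet marker rows by their own symbol, all 15 beta cell markers held counts in at least 1 of the 6 libraries. Their summed levels were 4456, 5042 and 4294 CPM in the DENSpm + Cytokines libraries and 3757, 4870 and 5018 CPM in the DFMO + Cytokines libraries. The 3 rows opposite beta cell markers summed to 19556, 21316 and 27370 CPM in the DENSpm + Cytokines libraries and to 41240, 36653 and 36022 CPM in the DFMO + Cytokines libraries. Of these rows, Pcsk2os1 and Pcsk2os2 face the same gene, Pcsk2. The row Nkx2-2os, opposite Nkx2-2, had 2470, 2339 and 3192 CPM in DENSpm + Cytokines, against 3621, 2792 and 2686 CPM in DFMO + Cytokines. What part the difference between the sums had in the results was not tested. Among 10 markers of other islet cells 6 were at 0 in all 6 libraries, Ppy and Pyy among them, and the summed level was 61.4 to 81 CPM against 52.1 to 107 CPM. Among 18 markers of non-endocrine cells 12 were at 0, Ptprc, Col1a1 and Prss1 among them, and the sums were 7.08 to 9.53 CPM against 0 to 6.51 CPM. Rows of beta cell markers could be near 0 too, with 0 to 4.72 CPM for Ins1 and 0 to 3.18 CPM for Slc2a2. A row at 0 therefore does not show that a cell type was absent.

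With cytokines present, 7 of 13 rows opposite mitosis genes and 9 of 19 opposite DNA replication and repair genes were higher, and 0 lower, in the cells given DENSpm than in the cells given DFMO. Of 16 rows opposite lysosome and autophagy genes, 6 were lower and 0 higher, and 2 of the 6 face the same gene. The other rows of these lists were not called. In edgeR's quasi-likelihood test 377 of 3713 rows (10.2%) had a Benjamini-Hochberg adjusted p under 0.05, here called: 199 (5.36%) were higher and 178 (4.79%) lower in DENSpm + Cytokines than in DFMO + Cytokines. Fold changes are DENSpm + Cytokines over DFMO + Cytokines throughout. Of the called rows, 198 differed at least 2-fold, 110 upward and 88 downward, and the median log2 fold change of all rows tested was 0.01. The libraries of the groups did not overlap in 368 of the 377 called rows, against 990 (26.7%) of all rows tested. Rows with a gene opposite were called in 275 of 2243 cases (12.3%) and rows with none in 102 of 1470 (6.94%). Called rows were also the deeper ones, with a median mean level of 267 CPM (counts scaled to a common library total), against 40.9 CPM over all rows tested. Leaving out any 1 of the 6 libraries left 284 to 310 calls.

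**Figure D1:**
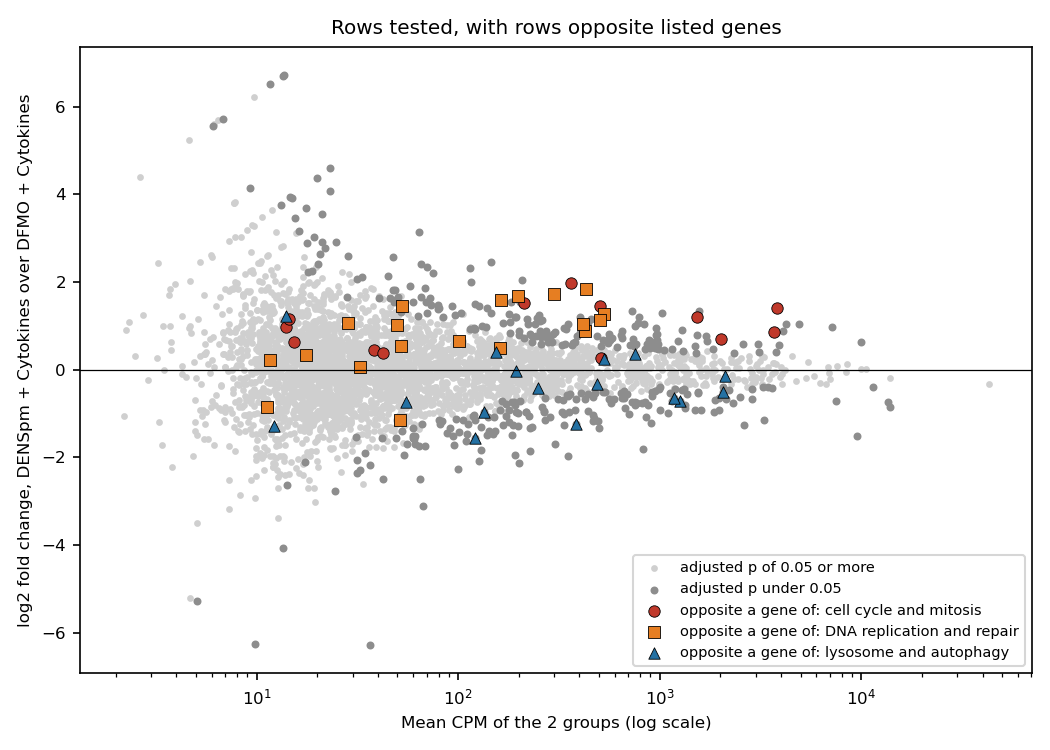
Each point is a row tested; the x axis is its mean CPM over both groups (log scale) and the y axis its log2 fold change, DENSpm + Cytokines over DFMO + Cytokines. Large symbols are rows opposite genes of 3 lists, called or not: circles and squares (mitosis, and replication and repair) lie mostly above 0, and triangles (lysosome and autophagy) mostly below it.

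Cell cycle and mitosis genes lay opposite 13 rows tested, and 7 of them were called, all 7 higher in DENSpm + Cytokines (all rows: 5.36% higher). Their median log2 fold change was 0.97, against 0.01 over all rows, and all 13 values were above 0. In bulk RNA, fewer cells with a transcript and less of it per cell cannot be told apart. The Ints8 row (chr4:11199158-11254258, minus strand, mm10) shares 609 exon bases with Ccne2, whose product cyclin E2 drives entry into S phase. It had 5337, 6507 and 4849 CPM in DENSpm + Cytokines, against 1892, 2432 and 1959 CPM in DFMO + Cytokines (log2 fold change 1.41 ± 0.14 (SE), adjusted p = 1.2e-09). Every DENSpm + Cytokines library lay above every DFMO + Cytokines library. Exosc9 (chr3:36552606-36565727, plus strand) lies opposite Ccna2, the cyclin of S phase and of entry into mitosis, over 510 bases, and measured 4985, 4354 and 4889 CPM in DENSpm + Cytokines, against 2489, 2575 and 2751 CPM in DFMO + Cytokines (log2 fold change 0.86 ± 0.13 (SE), adjusted p = 9.0e-06). The Lcorl row (chr5:45697181-45857615, minus strand) overlaps Ncapg, a condensin subunit that compacts mitotic chromosomes, and stood at 2236, 2301 and 1853 CPM in DENSpm + Cytokines, against 891, 838 and 1042 CPM in DFMO + Cytokines (log2 fold change 1.21 ± 0.13 (SE), adjusted p = 6.0e-09). In these 3 abundant rows the groups were separated, with the values inside each group close together.

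The other 4 rows of the list face proteins of the centromere, the kinetochore and cell division. Nusap1, itself named for a spindle protein, faces Oip5, a factor that helps place the centromeric histone, and had 561, 557 and 621 CPM in DENSpm + Cytokines, against 161, 191 and 91.2 CPM in DFMO + Cytokines (log2 fold change 1.98 ± 0.22 (SE), adjusted p = 1.1e-08). Lctl, opposite the kinetochore checkpoint protein Zwilch, measured 705, 772 and 765 CPM in DENSpm + Cytokines, against 139, 260 and 413 CPM in DFMO + Cytokines (log2 fold change 1.45 ± 0.22 (SE), adjusted p = 6.2e-06). Sap18, opposite Ska3 of the complex that ties kinetochores to microtubules, had 359, 259 and 331 CPM in DENSpm + Cytokines, against 72.3, 102 and 150 CPM in DFMO + Cytokines (log2 fold change 1.53 ± 0.23 (SE), adjusted p = 3.5e-06). The DFMO + Cytokines values of Lctl spanned the widest range for their size, but stayed under those of DENSpm + Cytokines. Cdc23, opposite the cytokinesis kinesin Kif20a, differed least, with 2272, 2374 and 2845 CPM in DENSpm + Cytokines, against 1715, 1186 and 1726 CPM in DFMO + Cytokines (log2 fold change 0.69 ± 0.14 (SE), adjusted p = 3.2e-04). The rows opposite Haus1, Ccnd3, Cdc20, Nusap1, Cdc25b and Cdk4 were not called, at log2 values of 0.26 to 1.15. All 7 calls held in every alternative and with any library left out.

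DNA replication and repair genes lay opposite 19 rows tested. Of these, 9 were higher in DENSpm + Cytokines and 0 lower (all rows: 5.36% higher and 4.79% lower). Their median log2 fold change was 1.02, against 0.01 over all rows, and 17 of 19 values were above 0. The 2 values below 0 were not called, in the rows opposite Atr (-1.14, adjusted p = 0.157) and, for 1 of 2 rows, Eme1 (-0.86, adjusted p = 0.667). The row of largest change in the list faces a gene of homologous recombination. Lrrc41 (chr4:116075269-116097043, plus strand) overlaps Rad54l, a motor protein of strand exchange, over 1184 bases and had 736, 651 and 623 CPM in DENSpm + Cytokines, against 227, 114 and 221 CPM in DFMO + Cytokines (log2 fold change 1.84 ± 0.21 (SE), adjusted p = 1.6e-08). Mfsd3, opposite the helicase Recql4, had 268, 349 and 295 CPM in DENSpm + Cytokines, against 53.5, 75.1 and 154 CPM in DFMO + Cytokines (log2 fold change 1.67 ± 0.26 (SE), adjusted p = 9.6e-06). In both rows the lowest DENSpm + Cytokines library was above the highest DFMO + Cytokines library.

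Fanconi anaemia genes, whose products repair crosslinks between DNA strands, faced 3 of the 9 rows. Polg (chr7:79446231-79466362, minus strand), opposite Fanci, had 411, 413 and 550 CPM in DENSpm + Cytokines, against 131, 143 and 139 CPM in DFMO + Cytokines (log2 fold change 1.73 ± 0.20 (SE), adjusted p = 2.0e-08). Zfp276 lies opposite Fanca and also opposite Vps9d1. It measured 502, 516 and 656 CPM in DENSpm + Cytokines, against 300, 235 and 287 CPM in DFMO + Cytokines (log2 fold change 1.03 ± 0.18 (SE), adjusted p = 3.9e-05). Fancd2os, opposite Fancd2, held far fewer counts, with 80.2, 105 and 47.2 CPM in DENSpm + Cytokines, against 32.1, 15.9 and 36.9 CPM in DFMO + Cytokines (log2 fold change 1.46 ± 0.42 (SE), adjusted p = 0.0159). That last call was lost without DFMO + Cytokines 2 (1.17, adjusted p = 0.127) and without DENSpm + Cytokines 2 (1.20, adjusted p = 0.123), which left 8 of the 9 calls. Factors of the replication fork faced the other 3. Eif4a2, opposite the clamp loader subunit Rfc4, had 639, 753 and 859 CPM in DENSpm + Cytokines, against 260, 353 and 313 CPM in DFMO + Cytokines (log2 fold change 1.28 ± 0.19 (SE), adjusted p = 3.4e-06). Ubxn6, opposite the chromatin assembly factor Chaf1a over 4648 bases, measured 686, 672 and 734 CPM in DENSpm + Cytokines, against 409, 271 and 280 CPM in DFMO + Cytokines (log2 fold change 1.13 ± 0.17 (SE), adjusted p = 3.5e-06). Gse1, opposite Gins2 of the replicative helicase, had 517, 537 and 600 CPM in DENSpm + Cytokines, against 313, 276 and 313 CPM in DFMO + Cytokines (log2 fold change 0.87 ± 0.16 (SE), adjusted p = 8.9e-05). Over the 16 called rows of both lists the fold was 1.62 to 3.93, and the groups overlapped in none of the 16. The groups did not overlap in 368 of all 377 called rows either, and in 26.7% of all rows tested.

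**Figure D2:**
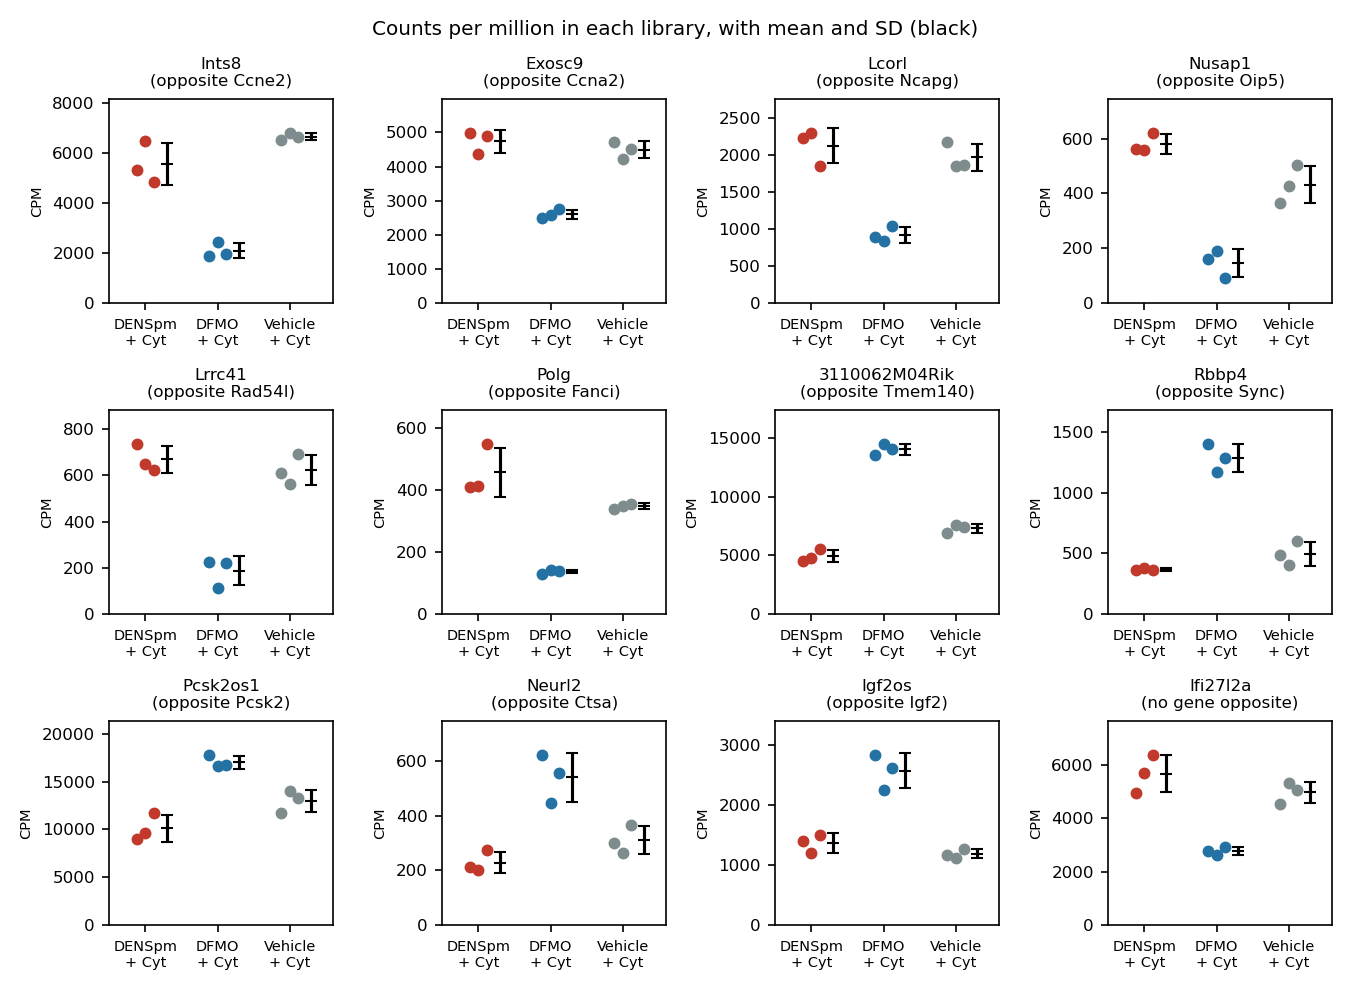
Levels of 12 rows in CPM (y axis) in each library of DENSpm + Cytokines, DFMO + Cytokines and Vehicle + Cytokines; dots are libraries and black bars the mean ± SD of 3. In the 6 rows opposite mitosis and replication genes (Ints8 to Polg) the DFMO + Cytokines dots lie lowest, and in the rows of 3110062M04Rik, Rbbp4, Pcsk2os1, Neurl2 and Igf2os they lie highest.

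Promoters of the genes opposite these 16 rows are shown because the rows moved together. Starts of 8 of the 16 genes were matched by symbol in RefSeq (GRCm38.p6), and the 250 bases before the start were searched on both strands for 7 short motifs known from cell cycle promoters. The motifs were picked after the counts were seen. The E2F-type TTCCCGC occurred in 1 of the 8 (12.5%; Chaf1a) and in 4.38% of 27025 genes. The overlapping E2F-type motifs GGCGGGAA and TTTGGCG occurred in Chaf1a too, as parts of the same site, and in 2.13% and 1.45% of all genes. TTTGGCGC, TTTCCCGC and TTTCGCGC were in 0 of the 8, and in 0.485%, 1.03% and 0.3% of all genes. The CHR-type TTTGAA occurred in 2 of the 8 (25%; Ncapg and Ska3) and in 18.3% of all genes. A match is a run of letters only. The windows of Chaf1a, Ncapg and Ska3, which hold a match, and of Rad54l, the gene opposite one of the rows with the largest differences, which holds none (the first of its 2 starts), read as follows, 5′ to 3′ on the strand of the gene, with TTCCCGC or TTTGAA, or its reverse complement, in capitals.
Chaf1a (chr17:56040166-56040415, plus strand): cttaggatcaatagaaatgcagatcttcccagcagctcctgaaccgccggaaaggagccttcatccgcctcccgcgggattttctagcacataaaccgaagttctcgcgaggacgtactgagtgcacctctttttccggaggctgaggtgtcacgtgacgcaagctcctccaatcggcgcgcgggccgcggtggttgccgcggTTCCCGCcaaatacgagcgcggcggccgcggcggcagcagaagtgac
Ncapg (chr5:45669675-45669924, plus strand): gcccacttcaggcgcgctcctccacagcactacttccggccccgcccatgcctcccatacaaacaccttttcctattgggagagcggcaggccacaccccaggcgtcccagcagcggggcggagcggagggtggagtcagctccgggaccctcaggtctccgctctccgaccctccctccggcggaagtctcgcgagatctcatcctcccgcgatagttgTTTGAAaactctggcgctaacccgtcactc
Ska3 (chr14:57826164-57826413, minus strand): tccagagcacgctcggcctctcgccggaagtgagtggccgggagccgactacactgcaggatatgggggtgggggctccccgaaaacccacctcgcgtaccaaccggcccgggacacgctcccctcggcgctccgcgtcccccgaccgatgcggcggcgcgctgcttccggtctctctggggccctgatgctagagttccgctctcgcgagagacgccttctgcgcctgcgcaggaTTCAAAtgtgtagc
Rad54l (chr4:116123691-116123940, minus strand): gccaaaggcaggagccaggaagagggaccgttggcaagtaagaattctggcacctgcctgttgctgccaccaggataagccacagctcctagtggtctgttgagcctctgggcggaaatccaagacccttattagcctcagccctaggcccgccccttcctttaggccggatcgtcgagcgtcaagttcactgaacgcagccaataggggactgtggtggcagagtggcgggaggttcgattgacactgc

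By their own symbol, genes of the same lists gave a mixed picture, with most called rows at low counts. Several deeper rows that carry symbols of genes named above were not called. Each of them faces the partner gene in turn, so its value is not a statement on the gene it is named for. Ccna2, opposite Exosc9, averaged 1066 CPM in DENSpm + Cytokines and 1275 CPM in DFMO + Cytokines (log2 fold change -0.26). Ccne2, opposite Ints8, averaged 536 and 571 CPM (-0.09), and Ncapg, opposite Lcorl, 686 and 612 CPM (0.16). Kif20a, opposite Cdc23, averaged 1155 and 899 CPM (0.36). Fanci, opposite Polg, averaged 554 and 598 CPM (-0.12), and Fanca, opposite Zfp276, 256 and 341 CPM (-0.43). Of 28 cell cycle rows tested, 3 were higher and 4 lower in DENSpm + Cytokines. Over all rows tested, 5.36% were higher and 4.79% lower. Mki67, the proliferation marker, held 39 counts in the DENSpm + Cytokines libraries (27.4, 39.7 and 2.36 CPM) and 0 counts in the DFMO + Cytokines libraries. Against a floor of 3 counts over the group it was at least 10.8-fold higher (adjusted p = 0.00326), with most of its counts in 2 of the 3 libraries. Smc4, a condensin subunit, had 25.3, 66.7 and 18.9 CPM in DENSpm + Cytokines, against 10.7, 4.55 and 0 CPM in DFMO + Cytokines (log2 fold change 2.90 ± 0.76 (SE), adjusted p = 0.00817), a call lost without DENSpm + Cytokines 2 (2.17, adjusted p = 0.124) and without DFMO + Cytokines 3 (2.30, adjusted p = 0.0724). The other one is Nusap1. Aurka, a mitotic kinase, was lower, with 27.4, 25.4 and 9.44 CPM in DENSpm + Cytokines, against 45.5, 88.8 and 54.3 CPM in DFMO + Cytokines (log2 fold change -1.56 ± 0.43 (SE), adjusted p = 0.0132); this call was lost without DENSpm + Cytokines 3 (-1.24, adjusted p = 0.0952) and without DFMO + Cytokines 2 (-1.23, adjusted p = 0.127). Kif22 (opposite Gm31749), Ncapd3 and Spc25, named here after their values were seen, were also lower, at log2 values of -1.15, -1.70 and -0.91. The count of 4 lower rows was 2 without DENSpm + Cytokines 1 or 3 or without DFMO + Cytokines 2 or 3, and 1 without DENSpm + Cytokines 2. Of 37 replication and repair rows by own symbol 1 was higher and 0 lower (9 at unadjusted p under 0.05, with 2 called by DESeq2): Pcna, the sliding clamp, with 150, 187 and 210 CPM in DENSpm + Cytokines, against 91, 82 and 106 CPM in DFMO + Cytokines (log2 fold change 0.97 ± 0.31 (SE), adjusted p = 0.0381). It was not called when any 1 library other than DENSpm + Cytokines 1 was left out, with adjusted p up to 0.141.

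Set beside the vehicle-treated cells with the same cytokines, none of the 16 rows was called in DENSpm + Cytokines, and all 16 were lower in DFMO + Cytokines. Both drug groups share the Vehicle + Cytokines libraries, so their values are given side by side only. For the Ints8 row opposite Ccne2, the log2 fold change was -0.26 ± 0.13 (SE; adjusted p = 0.424) for DENSpm + Cytokines and -1.67 ± 0.14 (adjusted p = 1.5e-11) for DFMO + Cytokines. For Lrrc41, opposite Rad54l, it was 0.11 ± 0.19 (adjusted p = 0.889) and -1.73 ± 0.21 (adjusted p = 1.0e-07). Over the 16 rows the range was -0.32 to 0.42 for DENSpm + Cytokines, with 0 called (lowest adjusted p = 0.351), and -1.79 to -0.72 for DFMO + Cytokines, with 16 called lower. These rows were picked for their difference between the drugs, so the counts describe them and test nothing further. Over all rows, 57 (1.54%) were called for DENSpm + Cytokines, 26 (0.7%) higher and 31 (0.835%) lower than in Vehicle + Cytokines. For DFMO + Cytokines 269 (7.24%) were called, 121 (3.26%) higher and 148 (3.99%) lower. The count for DENSpm + Cytokines depended on the tool and the libraries: it was 104 with DESeq2, and 33, 34 and 30 without DENSpm + Cytokines 1, 2 and 3.

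**Figure D3:**
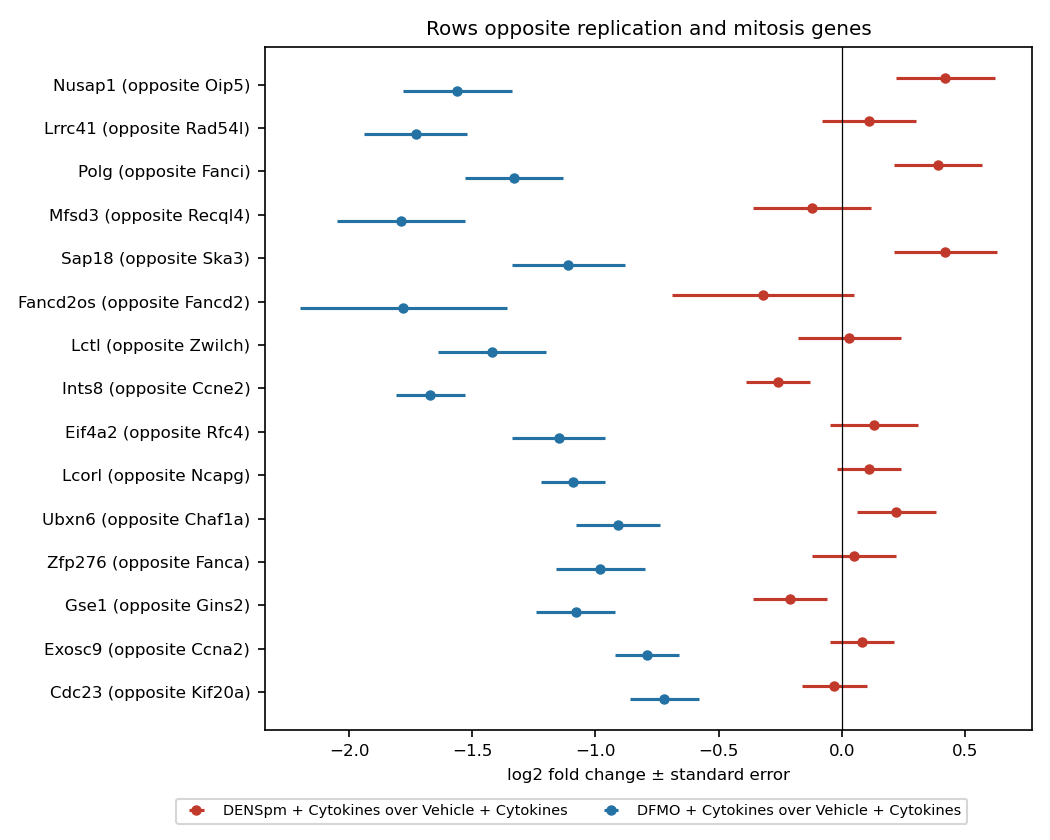
Log2 fold change ± SE of each drug group over Vehicle + Cytokines (x axis) for called rows opposite mitosis and replication genes (y axis). DENSpm + Cytokines values lie between -0.32 and 0.42, and DFMO + Cytokines values between -1.79 and -0.72; the 2 sets share their Vehicle + Cytokines libraries.

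Lysosome and autophagy genes lay opposite 16 rows tested, and 6 were lower in DENSpm + Cytokines and 0 higher (all rows: 4.79% lower). The median log2 fold change was -0.47, with 12 of 16 values under 0. Cathepsin A (Ctsa), a lysosomal protease, faces 2 of the rows, which are therefore not independent. Neurl2 (chr2:164830732-164833456, minus strand) had 211, 202 and 274 CPM in DENSpm + Cytokines, against 624, 446 and 556 CPM in DFMO + Cytokines (log2 fold change -1.25 ± 0.18 (SE), adjusted p = 3.4e-06). Pltp (chr2:164839518-164857711, minus strand) measured 846, 881 and 1032 CPM in DENSpm + Cytokines, against 1448, 1462 and 1390 CPM in DFMO + Cytokines (log2 fold change -0.64 ± 0.14 (SE), adjusted p = 0.00103). Both rows were lower in every DENSpm + Cytokines library than in any DFMO + Cytokines library. The autophagy genes were Gabarapl1, of the family that coats autophagosomes, and Becn1, which starts their formation. The row opposite Gabarapl1 (1700101I11Rik) had 846, 961 and 1046 CPM in DENSpm + Cytokines, against 1563, 1651 and 1470 CPM in DFMO + Cytokines (log2 fold change -0.72 ± 0.13 (SE), adjusted p = 1.7e-04). Cntd1 lies opposite Becn1 over 3104 bases and also opposite Coa3. It measured 1688, 1778 and 1641 CPM in DENSpm + Cytokines, against 2422, 2502 and 2373 CPM in DFMO + Cytokines (log2 fold change -0.51 ± 0.12 (SE), adjusted p = 0.00195). The differences were of 1.64-fold and 1.43-fold, small but larger than the spread within either group.

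The last 2 calls of the list rested on fewer counts. Mrnip, opposite the autophagy receptor Sqstm1, had 86.5, 61.9 and 33.1 CPM in DENSpm + Cytokines, against 169, 168 and 206 CPM in DFMO + Cytokines (log2 fold change -1.57 ± 0.41 (SE), adjusted p = 0.00739), and the call was lost without DENSpm + Cytokines 3 (-1.29, adjusted p = 0.0619). Nelfcd shares only 10 exon bases with the protease gene Ctsz and had 88.6, 87.3 and 99.2 CPM in DENSpm + Cytokines, against 209, 141 and 185 CPM in DFMO + Cytokines (log2 fold change -0.96 ± 0.30 (SE), adjusted p = 0.0285). It was called without DFMO + Cytokines 2, but not when any other single library was left out, with adjusted p up to 0.153. The count was 4 to 6 with 1 library left out. The other 10 rows, among them those opposite Npc1, Cln3, Ppt1, Sgsh, Grn, Ctsb, Atg4d, Hvcn1 and Map1lc3b, were not called, and by own symbol 0 of 32 rows of the list were (6 at unadjusted p under 0.05; 0 with DESeq2). Against Vehicle + Cytokines, the 6 called rows ranged from -0.70 to 0.21 for DENSpm + Cytokines, with 0 called, and from 0.21 to 0.87 for DFMO + Cytokines, where Neurl2 and Pltp were called.

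**Figure D4:**
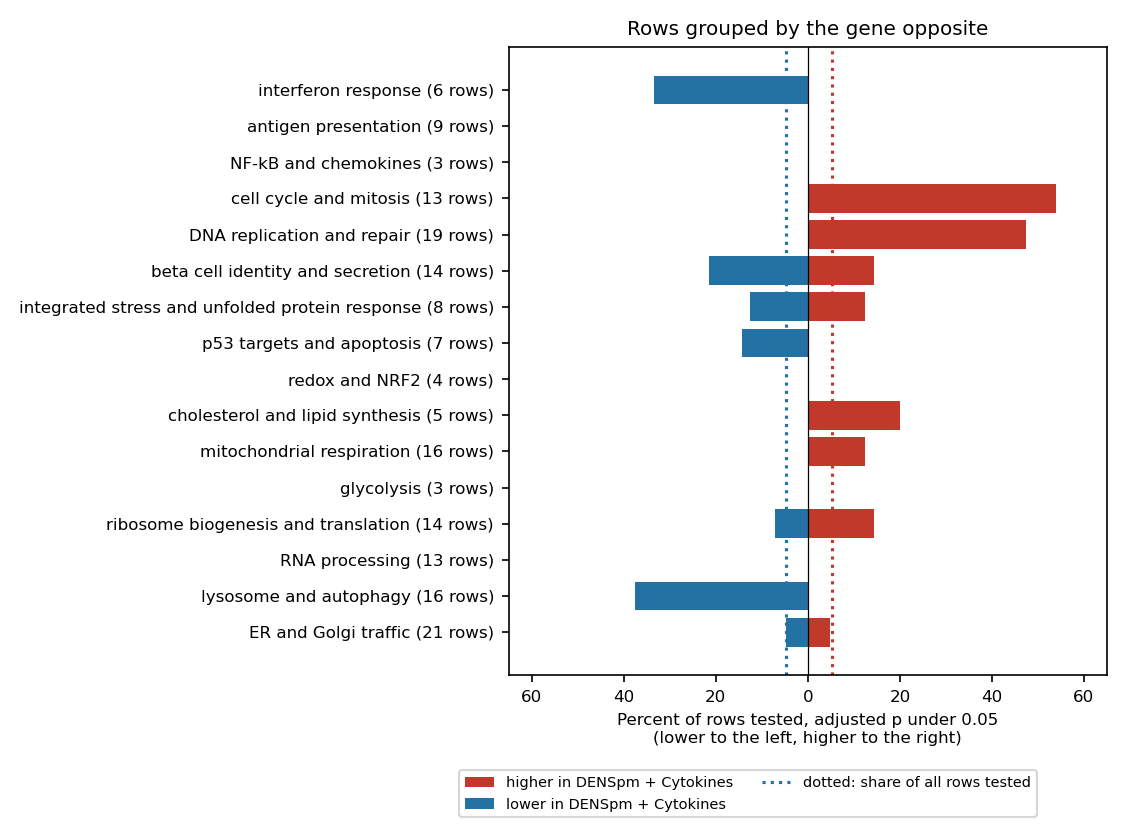
Share of the rows tested in each list, by the gene opposite, that were called higher (right) or lower (left) in DENSpm + Cytokines than in DFMO + Cytokines (x axis, percent). Dotted lines give the shares over all rows, 5.36% higher and 4.79% lower; the 2 lists with the longest bars to the right are mitosis and replication, and lysosome and autophagy has the longest to the left, on 16 rows.

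Few rows could be tested for genes that interferon induces. Of 6 rows opposite such genes, 2 were lower in DENSpm + Cytokines and 0 higher (all rows: 4.79% lower and 5.36% higher). The 3110062M04Rik row (chr6:34871771-34878060, minus strand) overlaps Tmem140, an interferon-induced membrane protein, over 2168 bases and had 4502, 4753 and 5539 CPM in DENSpm + Cytokines, against 13517, 14488 and 14091 CPM in DFMO + Cytokines (log2 fold change -1.51 ± 0.17 (SE), adjusted p = 2.8e-08). The difference was 2.85-fold, while without cytokines this row held at most 14.9 CPM in a DENSpm Alone library and 32.8 CPM in a DFMO Alone library. Mb, opposite the interferon-induced Apol6, had 118, 114 and 156 CPM in DENSpm + Cytokines, against 439, 319 and 226 CPM in DFMO + Cytokines (log2 fold change -1.34 ± 0.33 (SE), adjusted p = 0.00419), a call lost without DFMO + Cytokines 1 (-1.07, adjusted p = 0.0747), where 1 row of the list stayed called. The row opposite the GTPase gene Gbp2, the deepest of the list, averaged 37992 CPM in DENSpm + Cytokines and 47911 CPM in DFMO + Cytokines and was not called (Mir6381, log2 fold change -0.33, adjusted p = 0.0658). The rows opposite Parp9, Dtx3l and Il18bp were not called either. By own symbol, 1 of 22 interferon rows was called. This was Ifi27l2a (chr12:103442167-103443680, minus strand), an interferon-induced gene with none opposite, which was higher: 4960, 5675 and 6370 CPM in DENSpm + Cytokines, against 2770, 2605 and 2910 CPM in DFMO + Cytokines (log2 fold change 1.04 ± 0.14 (SE), adjusted p = 6.9e-07). Among the called interferon rows the 2 most abundant thus moved in opposite directions. Of 9 rows opposite antigen presentation genes, such as Tap1, Psmb9, Nlrc5 and Ciita, 0 were called by edgeR or DESeq2 (1 at unadjusted p under 0.05), and of 3 opposite NF-kB and chemokine genes 0 (1 at unadjusted p under 0.05; 0 with DESeq2).

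Beta cell genes lay opposite 14 rows tested, of which 2 were higher and 3 lower in DENSpm + Cytokines, with a median of 0.04. The shares over all rows were 5.36% higher and 4.79% lower. Without DENSpm + Cytokines 3, DFMO + Cytokines 1 or DFMO + Cytokines 2, 1 was higher. The prohormone convertase gene Pcsk2, whose product processes proinsulin, faces 2 of the most abundant rows of the data. Pcsk2os1 (chr2:143535476-143547837, minus strand) had 9000, 9642 and 11701 CPM in DENSpm + Cytokines, against 17801, 16606 and 16708 CPM in DFMO + Cytokines (log2 fold change -0.75 ± 0.13 (SE), adjusted p = 5.3e-05). Pcsk2os2 (chr2:143747583-143795965, minus strand) measured 8086, 9335 and 12477 CPM in DENSpm + Cytokines, against 19819, 17255 and 16628 CPM in DFMO + Cytokines (log2 fold change -0.85 ± 0.14 (SE), adjusted p = 1.7e-05). The 2 rows face the same gene and are not independent; the Vehicle + Cytokines libraries lay between the groups, at 11759, 13996 and 13253 CPM for Pcsk2os1. The row of Pcsk2 itself was low and not called (-0.83, adjusted p = 0.222).

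At the insulin-like growth factor locus Igf2 and its antisense row moved in opposite directions. Igf2os, which shares 98 exon bases with Igf2, was lower: 1403, 1194 and 1509 CPM in DENSpm + Cytokines, against 2837, 2259 and 2621 CPM in DFMO + Cytokines (log2 fold change -0.91 ± 0.14 (SE), adjusted p = 1.2e-05). Igf2 by its own symbol was higher, with 511, 576 and 845 CPM in DENSpm + Cytokines, against 447, 342 and 415 CPM in DFMO + Cytokines (log2 fold change 0.68 ± 0.16 (SE), adjusted p = 0.00358), and lost the call without DENSpm + Cytokines 3 (0.45, adjusted p = 0.0919). The pair of Inpp5a and Nkx6-2, a homeodomain factor, also split: Inpp5a, the row opposite Nkx6-2, had 209, 194 and 378 CPM in DENSpm + Cytokines, against 136, 105 and 182 CPM in DFMO + Cytokines (log2 fold change 0.87 ± 0.26 (SE), adjusted p = 0.0221), and the Nkx6-2 row 268, 194 and 293 CPM in DENSpm + Cytokines, against 586, 301 and 339 CPM in DFMO + Cytokines (log2 fold change -0.70 ± 0.21 (SE), adjusted p = 0.0252). Inpp5a lost its call without DENSpm + Cytokines 3 (0.51, adjusted p = 0.3), without DFMO + Cytokines 1 (0.85, adjusted p = 0.0714) and without DFMO + Cytokines 2 (0.69, adjusted p = 0.156). Nkx6-2 lost it without DENSpm + Cytokines 2 (-0.51, adjusted p = 0.218) and without DFMO + Cytokines 1 (-0.35, adjusted p = 0.445). Itgad, opposite Cox6a2, a cytochrome oxidase subunit, over 70 bases, had the largest difference of the list: 71.7, 130 and 142 CPM in DENSpm + Cytokines, against 18.7, 15.9 and 4.34 CPM in DFMO + Cytokines (log2 fold change 3.15 ± 0.42 (SE), adjusted p = 4.7e-07). The DFMO + Cytokines libraries held few counts in this row.

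Beta cell genes were also counted by own symbol, where 3 of 32 rows of the list were higher and 1 lower, with 10.2% of all rows called; such a count is no result about the list. The lower one was lost without DENSpm + Cytokines 2 or DFMO + Cytokines 1. Iapp, the islet amyloid peptide, had 287, 503 and 276 CPM in DENSpm + Cytokines, against 96.3, 166 and 185 CPM in DFMO + Cytokines (log2 fold change 1.25 ± 0.28 (SE), adjusted p = 0.00196). Chga, a granule protein, measured 899, 1056 and 984 CPM in DENSpm + Cytokines, against 704, 740 and 682 CPM in DFMO + Cytokines (log2 fold change 0.47 ± 0.14 (SE), adjusted p = 0.0242). The Chga call was lost when any single library other than DENSpm + Cytokines 1 was left out, with adjusted p up to 0.0999. Ins2, insulin, had 152, 292 and 77.9 CPM in DENSpm + Cytokines, against 85.6, 125 and 115 CPM in DFMO + Cytokines, and was not called (log2 fold change 0.70 ± 0.37 (SE), adjusted p = 0.265). It passed without DENSpm + Cytokines 3, its lowest library (1.04, adjusted p = 0.0494). Ins1 held 4 counts in the DENSpm + Cytokines libraries and 2 in the DFMO + Cytokines libraries, too few to test.

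Genes of polyamine metabolism itself were barely counted by own symbol. Odc1, the enzyme DFMO blocks, had 0, 17.5 and 4.72 CPM in DENSpm + Cytokines, against 5.35, 25 and 8.69 CPM in DFMO + Cytokines (log2 fold change -0.74 ± 1.16 (SE), adjusted p = 0.783); without DFMO + Cytokines 2 the value was 0.11. Sat1, the acetyltransferase that DENSpm is known to induce, held 10 counts over the DENSpm + Cytokines libraries and 8 over the DFMO + Cytokines libraries, too few to pass the filter, so no difference was tested. Why the row held few counts was not tested. Smox, Paox and Amd1 held 0 counts in all 6 libraries, Sms 2 and 0, Srm 2 and 4, and Oaz1 0 and 2. Of 11 polyamine rows tested by own symbol 1 was lower and 1 higher (all rows: 4.79% lower and 5.36% higher). Of 2 rows opposite a polyamine gene (Mat2a and Arg2) 0 were called (1 at unadjusted p under 0.05, and 0 with DESeq2). Arg2, the mitochondrial arginase that makes ornithine, whose row shares 285 bases with Vti1b, had 71.7, 79.4 and 85 CPM in DENSpm + Cytokines, against 260, 230 and 165 CPM in DFMO + Cytokines (log2 fold change -1.47 ± 0.27 (SE), adjusted p = 1.1e-04). Every DENSpm + Cytokines library was lower. Oaz3, the antizyme of the testis, overlaps Tdrkh over 2255 bases and also Mrpl9. It had 445, 270 and 312 CPM in DENSpm + Cytokines, against 198, 230 and 198 CPM in DFMO + Cytokines (log2 fold change 0.71 ± 0.20 (SE), adjusted p = 0.0132). That call was lost without DENSpm + Cytokines 1 (0.47, adjusted p = 0.226), without DFMO + Cytokines 1 (0.69, adjusted p = 0.0528) and without DFMO + Cytokines 3 (0.68, adjusted p = 0.0606).

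The remaining lists held calls in both directions or few calls, beside 5.36% of all rows higher and 4.79% lower. Of 8 rows opposite genes of the integrated stress and unfolded protein responses 1 was higher and 1 lower. The higher one was the row of Ddit3 itself, the stress factor CHOP, which shares 68 exon bases with the methionyl-tRNA synthetase gene Mars: it had 816, 867 and 963 CPM in DENSpm + Cytokines, against 645, 540 and 621 CPM in DFMO + Cytokines (log2 fold change 0.55 ± 0.15 (SE), adjusted p = 0.00888). That call was lost without DENSpm + Cytokines 3 (0.49, adjusted p = 0.0551) and without DFMO + Cytokines 2 (0.48, adjusted p = 0.0839). Of 14 rows opposite ribosome biogenesis and translation genes 2 were higher and 1 lower; the 2 became 1 without DENSpm + Cytokines 2, DFMO + Cytokines 1 or DFMO + Cytokines 2. The deepest of the 3 was Samd11, opposite Noc2l, a factor of nucleolar ribosome assembly, with 3188, 2753 and 3423 CPM in DENSpm + Cytokines, against 1983, 2165 and 2098 CPM in DFMO + Cytokines (log2 fold change 0.58 ± 0.12 (SE), adjusted p = 6.2e-04). Of 21 rows opposite genes of traffic between endoplasmic reticulum and Golgi 1 was higher and 1 lower, and of 7 opposite p53 and apoptosis genes 1 was lower. Calls of these lists were lost with a library left out: the lower stress row without any 1 of the 6, the lower ribosome row without DENSpm + Cytokines 1, DENSpm + Cytokines 2, DFMO + Cytokines 2 or DFMO + Cytokines 3, and the p53 row without DENSpm + Cytokines 1, DENSpm + Cytokines 3 or DFMO + Cytokines 1. The higher traffic row was lost without DENSpm + Cytokines 3 or any DFMO + Cytokines library. Lower traffic rows numbered 0 without DENSpm + Cytokines 2 and 2 without DENSpm + Cytokines 3. By own symbol the p53 target Ddb2, a DNA damage sensor whose row shares 652 bases with the lysosomal phosphatase gene Acp2, had 1483, 1239 and 1584 CPM in DENSpm + Cytokines, against 2152, 2316 and 2463 CPM in DFMO + Cytokines (log2 fold change -0.69 ± 0.13 (SE), adjusted p = 2.9e-04). Mitochondrial respiration had 2 of 16 rows higher (1 of them Itgad) and cholesterol and lipid synthesis 1 of 5. The count of 2 was 1 without DENSpm + Cytokines 3 or DFMO + Cytokines 1, and the cholesterol count was 0 without DENSpm + Cytokines 1, DFMO + Cytokines 2 or DFMO + Cytokines 3. Rows opposite RNA processing genes (13), glycolysis genes (3) and redox genes (4) held 0 calls, with 1 row of each at unadjusted p under 0.05, and DESeq2 called 0, 1 and 0 of them. Without DENSpm + Cytokines 3, 1 redox row was called. By own symbol, RNA processing had 4 of 38 rows higher and 4 lower, 3 of which (Ints8, Exosc9 and Nelfcd) face genes of the lists above. The 4 lower rows became 2 without DENSpm + Cytokines 2, DENSpm + Cytokines 3 or DFMO + Cytokines 3.

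Rows outside these lists that were named for a small adjusted p or, in the case of Kdm1b, for a high mean level included both directions. Fam69a (chr5:107908053-107987085, minus strand), opposite the ribosomal protein gene Rpl5 over 953 bases, was higher, with 2059, 2233 and 2439 CPM in DENSpm + Cytokines, against 771, 997 and 888 CPM in DFMO + Cytokines (log2 fold change 1.34 ± 0.13 (SE), adjusted p = 1.2e-09). Rufy2 (chr10:62980223-63017210, plus strand), opposite the RNA-binding protein gene Hnrnph3, measured 9567, 9251 and 9599 CPM in DENSpm + Cytokines, against 4405, 4950 and 5042 CPM in DFMO + Cytokines (log2 fold change 0.98 ± 0.11 (SE), adjusted p = 1.5e-08). Kdm1b (chr13:47043499-47085279, plus strand), opposite Dek, which codes for a chromatin protein, had 5179, 5597 and 5151 CPM in DENSpm + Cytokines, against 2724, 2976 and 2953 CPM in DFMO + Cytokines (log2 fold change 0.88 ± 0.11 (SE), adjusted p = 2.3e-07). Among the lower rows, Asph (chr4:9448069-9669344, minus strand) faces Clvs1, a clathrin-vesicle lipid-binding protein, over 2302 bases and had 2323, 1877 and 2011 CPM in DENSpm + Cytokines, against 4656, 4356 and 4632 CPM in DFMO + Cytokines (log2 fold change -1.14 ± 0.13 (SE), adjusted p = 2.0e-08). P2ry6, a nucleotide receptor with no exons opposite, measured 1597, 1402 and 1605 CPM in DENSpm + Cytokines, against 4084, 3381 and 3598 CPM in DFMO + Cytokines (log2 fold change -1.27 ± 0.13 (SE), adjusted p = 4.7e-09). Nol3, named for an apoptosis repressor and facing 4931428F04Rik, had 494, 553 and 585 CPM in DENSpm + Cytokines, against 1375, 1230 and 1177 CPM in DFMO + Cytokines (log2 fold change -1.21 ± 0.16 (SE), adjusted p = 3.3e-07). All 6 kept the call with any library left out. None of them had overlapping groups, like 368 of all 377 called rows and 26.7% of all rows tested.

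Among the largest changes by size, the Il21 row (chr3:37222759-37232636, minus strand) stood out. It held 1 count over the DENSpm + Cytokines libraries (0, 0 and 2.36 CPM) and 93 counts over the DFMO + Cytokines libraries (66.9, 61.5 and 89 CPM), and 0 counts in each of the other 12 libraries. Only through the DFMO + Cytokines libraries did the row pass the filter on low counts, so its difference is a description with no test. Il21 codes for an interleukin of T cells, and the row shares 469 exon bases with the unnamed gene Gm12534. Cdc27, a subunit of the complex that ends mitosis, and Fzd8, a Wnt receptor, held 37 and 39 counts in the DENSpm + Cytokines libraries and 0 in the DFMO + Cytokines libraries. They were at least 10.3-fold and 10.8-fold higher (adjusted p = 0.00111 and 0.00785). Gnat1, a transducin subunit, held 67 counts in the DENSpm + Cytokines libraries and 2 in the DFMO + Cytokines libraries, a 27.9-fold ratio with an interval of 7.44 to 235. Sphk1, a sphingosine kinase whose row shares 192 bases with Gm29292, held 67 and 3 counts, an 18.6-fold ratio with an interval of 6.1 to 92.6. Derl3, a protein of endoplasmic reticulum degradation, held 58 and 2 counts, a 24.2-fold ratio with an interval of 6.4 to 204. Derl3 passed the filter on low counts only through the DENSpm + Cytokines libraries, so its ratio and interval are a description with no test. Each of these 5 ratios rests on 0 to 3 counts in 1 of the groups and is imprecise. Deeper rows with large differences were Elmo3, opposite Mir328 (12 bases) and Gm27320, and Zbtb22, opposite Gm19412 (47 bases), both lower in DENSpm + Cytokines. Elmo3 had 99.2, 47.6 and 77.9 CPM in DENSpm + Cytokines, against 343, 346 and 291 CPM in DFMO + Cytokines (log2 fold change -2.14 ± 0.34 (SE), adjusted p = 2.3e-05). Zbtb22 had 42.2, 34.9 and 26 CPM in DENSpm + Cytokines, against 136, 159 and 202 CPM in DFMO + Cytokines (log2 fold change -2.26 ± 0.37 (SE), adjusted p = 2.4e-05).

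In some rows DENSpm + Cytokines, and not DFMO + Cytokines, was called against Vehicle + Cytokines. Tsr1, whose row faces Srr, the serine racemase gene, had 757, 645 and 810 CPM in DENSpm + Cytokines, against 1547, 1421 and 1429 CPM in DFMO + Cytokines, and 1400, 1348 and 1588 CPM in the Vehicle + Cytokines libraries. Its log2 fold change against Vehicle + Cytokines was -0.97 ± 0.14 (SE; adjusted p = 2.2e-05) for DENSpm + Cytokines and 0.02 ± 0.13 (adjusted p = 0.96) for DFMO + Cytokines. Sdr39u1, opposite Khnyn, had 283, 287 and 288 CPM in DENSpm + Cytokines, against 658, 556 and 723 CPM in DFMO + Cytokines, and 767, 553 and 640 CPM in the Vehicle + Cytokines libraries; the values against vehicle were -1.19 ± 0.17 (adjusted p = 2.2e-05) and -0.02 ± 0.17 (adjusted p = 0.971). Hnrnpu, opposite Cox20, an assembly factor of cytochrome oxidase, was higher, with 2015, 1993 and 2427 CPM in DENSpm + Cytokines, against 1276, 1300 and 1231 CPM in DFMO + Cytokines, and 1245, 1458 and 1193 CPM in the Vehicle + Cytokines libraries; against vehicle it had 0.72 ± 0.14 (adjusted p = 0.00298) and -0.03 ± 0.14 (adjusted p = 0.938). These 3 rows were picked after their values against vehicle were seen, and DFMO + Cytokines was called against Vehicle + Cytokines in none of them.

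The same drugs without cytokines gave a difference of similar extent in 6 other libraries. DENSpm Alone against DFMO Alone called 414 of 3713 rows (11.2%), 217 higher (5.84%) and 197 lower (5.31%). Without DFMO Alone 2 the count was 269. Rows called in the same direction in both comparisons numbered 177, which is 46.9% of the calls with cytokines and 42.8% of those without; 95 were higher and 82 lower, and 2 rows were called in opposite directions. The 2 comparisons share no library, though all 18 entered the fit. Across the 3713 rows the log2 fold changes correlated at r = 0.361, a value over rows, which are not independent. Of the 16 rows opposite mitosis and replication genes 14 were also higher in DENSpm Alone. The rows opposite Fancd2 (0.98, adjusted p = 0.0888) and Fanca (0.31, adjusted p = 0.252) were not called there. Of the 6 rows opposite lysosome genes 2 were lower in DENSpm Alone, the 2 opposite Ctsa.

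Whether the drug difference itself depended on cytokines was tested by the interaction, (DENSpm + Cytokines minus DFMO + Cytokines) minus (DENSpm Alone minus DFMO Alone). It was called in 10 rows (0.269%), 7 positive (0.189%) and 3 negative (0.0808%), with 331 rows at unadjusted p under 0.05. None of the 16 rows opposite mitosis and replication genes was among them (lowest adjusted p = 0.286), which does not show that their difference was equal with and without cytokines. Rbbp4, opposite the intermediate filament gene Sync over 782 bases, turned round. With cytokines it had 367, 383 and 361 CPM in DENSpm + Cytokines, against 1405, 1170 and 1288 CPM in DFMO + Cytokines (log2 fold change -1.80 ± 0.17 (SE), adjusted p = 1.2e-09). Without them it had 347, 495 and 358 CPM in the DENSpm Alone libraries and 241, 197 and 279 CPM in the DFMO Alone libraries (log2 fold change 0.74 ± 0.18 (SE), adjusted p = 0.00379). The interaction was -2.54 ± 0.25 (SE, adjusted p = 2.6e-09). Igf2os was lower with DENSpm in both settings, and more so without cytokines, where it had 2289, 1805 and 1967 CPM in the DENSpm Alone libraries and 11842, 11549 and 7472 CPM in the DFMO Alone libraries (interaction 1.44 ± 0.20, adjusted p = 1.9e-05). These 2 interactions held in every alternative and with any library left out. The other 8 were lost under at least 1 of them, and the count of 10 ranged from 3 to 16 with a library left out: 3 without DENSpm + Cytokines 3 or DFMO Alone 2, 5 without DFMO + Cytokines 1, DFMO + Cytokines 3 or DFMO Alone 1, and 16 without DENSpm Alone 1.

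**Figure D5:**
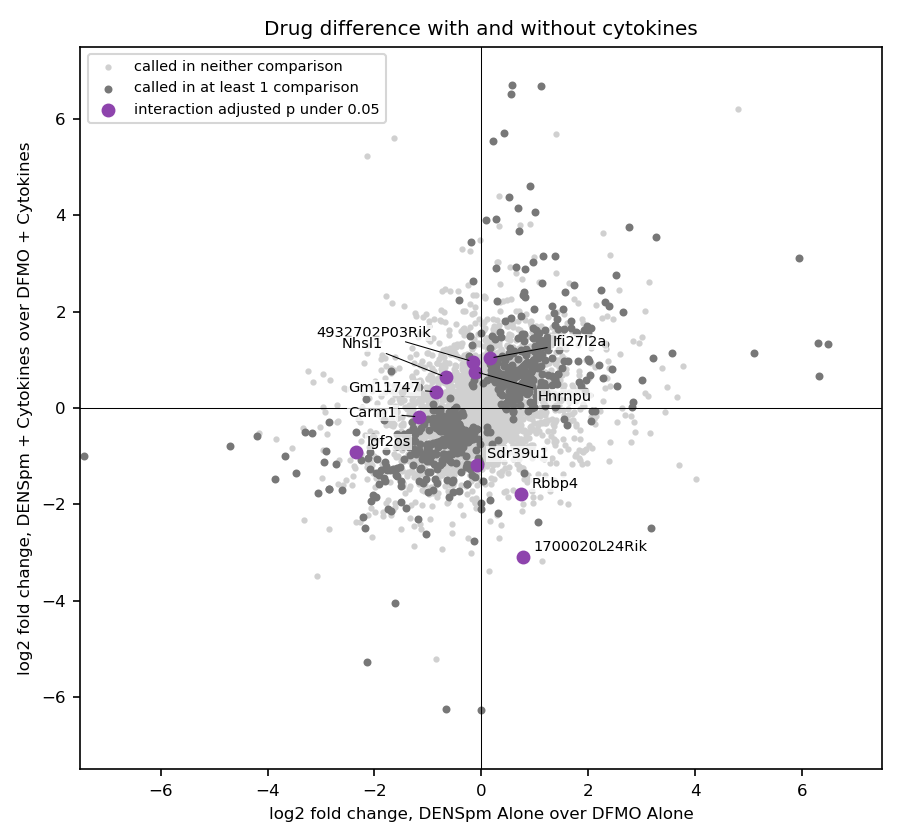
Log2 fold change of each row tested for DENSpm over DFMO without cytokines (x axis, DENSpm Alone over DFMO Alone) and with cytokines (y axis, DENSpm + Cytokines over DFMO + Cytokines). Dark points are called in at least 1 of the comparisons, and the 10 labelled points have an interaction adjusted p under 0.05; Rbbp4 lies at -1.80 with cytokines and 0.74 without.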

How the data were processed

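RNA of MIN6 cells was sequenced in 18 poly(A)-selected, strand-specific (TruSeq) libraries, per the labels' protocols. The authors counted reads with HTSeq against mm10, per the submitters' processing notes, and deposited raw counts per row for each drug series. FastQC and DESeq2 are named there too. Aligner, annotation and strand setting: not given in the sources used here. The authors also deposited log2 values, used here only to recover their library factors for an alternative. The 2 count tables of 24557 rows, whose 6 columns of libraries without a drug are identical, were joined by row and those columns used once. Symbols turned into dates (26) were restored from the gene ID.

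Rows were placed by symbol, gene ID or RefSeq locus on GENCODE M21 (GRCm38, the assembly of mm10); 188 rows stayed unmatched. The gene opposite is the one with exons on the other strand, protein-coding genes first, then established symbols, then the longest overlap. Further genes opposite the same row are named only in places. The preference for established symbols was added after a row's values were seen. Counts were fitted in R 4.3.3 with edgeR 4.0.16: filterByExpr by group (minimum count 10), TMM, a mean per group over all 18 libraries, robust quasi-likelihood F test, common biological coefficient of variation 0.306, p-values adjusted over 3713 rows. An SE is the log2 fold change divided by the square root of F. CPM values are TMM-scaled. Totals were 403377 to 639625 counts (median 480476.5). Counting intervals (95%, exact binomial on the sums of the groups) and floors of 3 counts over a group cover counting error only. They are too narrow if a read pair added 2 counts: values of 2 were more frequent (24598) than values of 1 (15440). On simulated counts for DENSpm + Cytokines versus DFMO + Cytokines (3564 rows) the fit recovered 6.98% of the changed rows at 1.5-fold, 43.5% at 2-fold, 58% at 4-fold and 23.3% at 0.5-fold, with 3.12% false calls. Alternatives were DESeq2 1.42.0, other library factors and filters, halved counts, a replicate block, only the groups compared, and each library left out.

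The comparison, its members and the gene lists were chosen with earlier results of these data known. Named rows are, in each direction, the 12 of largest change (at least 20 CPM, groups apart), the 5 of smallest adjusted p and the 6 of highest mean; up to 4 called rows per list; up to 5 interactions in each direction; and fixed polyamine and insulin genes. Called rows of a list beyond 4 (10 rows) were added after their values were seen. Some members of the lists are counted but not reported here by name.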

Additional observations from a re-analysis of the deposited data

Results flagged for a closer look

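The drug difference with cytokines differed from the drug difference without them in 10 rows by the interaction test (edgeR, adjusted p under 0.05). Values are log2, (DENSpm + Cytokines minus DFMO + Cytokines) minus (DENSpm Alone minus DFMO Alone), so a negative value means a lower DENSpm to DFMO ratio with cytokines. Rbbp4, opposite Sync, had -2.54 (adjusted p = 2.6e-09) and Igf2os, opposite Igf2, 1.44 (adjusted p = 1.9e-05). These 2 kept the call under all 20 alternatives run.

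The row 1700020L24Rik, opposite Mmp28, a secreted protease, had -3.89 (adjusted p = 0.0114). It measured 12.7, 6.35 and 23.6 CPM in DENSpm + Cytokines, against 131, 112 and 113 CPM in DFMO + Cytokines; without cytokines it had 28.3, 20.5 and 90.9 CPM in DENSpm Alone, against 21.1, 8.87 and 49.5 CPM in DFMO Alone. Carm1, an arginine methyltransferase whose row faces Yipf2, had 0.98 (adjusted p = 0.023), with 1321, 965 and 1334 CPM in DENSpm Alone, against 3142, 2653 and 2323 CPM in DFMO Alone, and a drug difference of -0.18 with cytokines that was not called. Positive values were also found for 4932702P03Rik, opposite Aldh5a1 (1.12, adjusted p = 0.0298), Gm11747, opposite C1qtnf1 (1.19, adjusted p = 0.0352), Nhsl1, with no exons opposite (1.31, adjusted p = 0.0352), Hnrnpu, opposite Cox20 (0.87, adjusted p = 0.0354), and the interferon-induced Ifi27l2a (0.88, adjusted p = 0.0354). Sdr39u1, opposite Khnyn, had -1.09 (adjusted p = 0.0352). These 8 lost the call under 3 to 11 of the 20 alternatives.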

How the results depend on the processing

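No named row that was called turned its direction under any alternative with a value. Called rows that are not named were not checked for this. The uncalled rows of Odc1 (-0.74; with 1 library left out, -2.36 to 0.11, 0.11 without DFMO + Cytokines 2, adjusted p = 0.986) and Azin1 (0.46; -0.19 to 0.96, -0.19 without DENSpm + Cytokines 1, adjusted p = 0.961) did. The count of 377 rows between DENSpm + Cytokines and DFMO + Cytokines was 426 with DESeq2, 282 with no count filter, 425 on halved counts, 384 with only the groups compared and 284 to 310 with a library left out. Higher rows were then 139 to 167 and lower rows 121 to 158. Halving the counts changed the split to 203 higher and 222 lower. The count of DENSpm Alone against DFMO Alone was 269 to 351 with a library left out. The interaction count of 10 was 26 with DESeq2, 2 with only the groups compared and 3 to 16 with a library left out. For DENSpm + Cytokines against Vehicle + Cytokines, 57 became 104 with DESeq2, 88 on halved counts and 37 with no count filter. The cause of these shifts was not tested. Of 100 named rows called, 59 kept the call in every alternative with a value and 41 lost it at least once.

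Deviations from the group means correlated at -0.0159, 0.0973 and -0.0126 between same-numbered libraries of DENSpm + Cytokines and DFMO + Cytokines. Differently numbered libraries gave -0.0681 to 0.0747. Many of the rows held few counts, so these values cannot tell whether same-numbered libraries shared a preparation. With a replicate block the counts were 380, 199 higher and 181 lower, 414 without cytokines and 14 interactions; the block ended the calls of 2 named rows, Atp6v1c2 (adjusted p = 0.0545) and Tnr (adjusted p = 0.0599). Most rows of polyamine enzymes held 10 counts or fewer over a group, and the cause was not tested.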
